A study of Mus musculus with 56 samples.

Results

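The endoplasmic reticulum (ER) stress and chaperone genes examined here are 32 genes of the unfolded protein response, picked by name from the 18088 genes measured in mouse prefrontal cortex. They were chosen by their known roles, with earlier results of these data known, and the rule uses no threshold on a measured value. All 32 were in the table, and all passed the filter on low values. The mice were C57BL/6J and either heterozygous (HT) or wild type (WT) for Scn2a, the gene of a voltage-gated sodium channel of neurons. HT mice keep 1 intact copy of the gene. Both genotypes had received fluoxetine, lithium or vehicle through the milk of their mothers for 3 weeks, on postnatal days 3 to 24, and cortex was taken on day 25. Fluoxetine is an antidepressant that blocks serotonin reuptake, and lithium is a mood stabiliser. With females and males counted together there were 9 HT fluoxetine, 10 HT lithium, 9 WT fluoxetine, 9 WT lithium, 10 HT vehicle and 9 WT vehicle libraries, which makes 56.

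Libraries held between 24.3 and 36.4 M reads (median 27.9 M). Scn2a had values of 7583 to 9619 in HT libraries and 9728 to 13381 in WT libraries, so no library went against its genotype label. The summed value of 6 neuron markers was between 169396 and 202559 in every library, so neuronal RNA was plentiful in all of them. Some dissections held more RNA of neighbouring regions than others. The sum of 8 markers of olfactory bulb and migrating neuroblasts was 2117 to 15958, and that of 8 striatal markers was 5233 to 22652. The olfactory markers Tbx21 and Eomes were at 0 in the library where they were lowest. In 23 libraries the score of at least 1 of these lists was more than 1 above the median on the log2 scale: 3 HT fluoxetine, 5 HT lithium, 5 WT fluoxetine, 2 WT lithium, 5 HT vehicle and 3 WT vehicle. Results are therefore also given without those 23. In bulk tissue, fewer cells of a type and less RNA per cell cannot be told apart. The labels name no litter and the milk dose of a pup is not in them. Pups of a group may share a mother, and p-values of the drug effects may then be too small.

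Proteins bound for the cell surface or for secretion fold in the ER, helped by chaperones and by enzymes that form disulphide bonds. When unfolded protein accumulates there, the sensors ATF6, IRE1 and PERK start the unfolded protein response. ATF6 is cut in the Golgi to release a transcription factor that raises ER chaperones. IRE1, encoded by Ern1, splices Xbp1 mRNA, and the XBP1 protein then raises genes of ER-associated degradation, the route that removes misfolded proteins. PERK, encoded by Eif2ak3, slows translation and favours ATF4, which acts upstream of Ddit3 (CHOP), Trib3 and Ppp1r15a (GADD34). The genes were placed in the ATF6 branch (11 genes), the IRE1 and XBP1 branch (10 genes), the PERK branch (5 genes) or no branch (6 genes) by textbook knowledge, and the targets of the branches overlap. Values per gene do not show the splicing of Xbp1, the cutting of ATF6 or the phosphorylation by PERK.

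The promoter elements bound by ATF6 and XBP1 are short and can be read directly. The window from 250 bases before to 50 after the RefSeq start (build GRCm38.p6) was available for 27 of the 32 genes, and both strands were searched. The ER stress element (ERSE) was searched as CCAAT and CCACG with 9 other bases between them, ERSE-II as ATTGG and CCACG with 1 base between them, the core of the XBP1-bound element (UPRE core) as TGACGTG, and the ATF4-bound element (CARE) as TGATGNAAT. ERSE and ERSE-II share the letters CCACG, and the ATTGG of ERSE-II is CCAAT read on the opposite strand. No match overlapped another. All matches in these genes are shown because every gene with an ERSE or ERSE-II was called higher under lithium. Each is written 5′ to 3′ on the strand that carries it, with 6 flanking bases in lower case on either side, and the capitals mark the letters searched. The coordinates run over the element without its flanks.
Hspa5 ERSE (chr2:34772025-34772043, + strand): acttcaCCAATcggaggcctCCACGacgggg
Hspa5 UPRE core (chr2:34771933-34771939, + strand): tagcaaTGACGTGagttgc
Hsp90b1 ERSE (chr10:86705638-86705656, - strand): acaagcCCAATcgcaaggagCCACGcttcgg
Hsp90b1 ERSE (chr10:86705533-86705551, + strand): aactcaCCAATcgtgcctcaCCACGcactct
Pdia6 ERSE (chr12:17266491-17266509, + strand): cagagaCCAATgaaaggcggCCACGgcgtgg
Calr ERSE (chr8:84847075-84847093, + strand): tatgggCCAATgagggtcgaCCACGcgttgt
Creld2 ERSE (chr15:88819520-88819538, - strand): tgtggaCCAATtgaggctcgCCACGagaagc
Herpud1 ERSE-II (chr8:94386377-94386387, + strand): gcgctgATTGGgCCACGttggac
Dnajb11 ERSE-II (chr16:22857852-22857862, + strand): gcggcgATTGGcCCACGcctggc
Dnajc3 ERSE (chr14:118937827-118937845, + strand): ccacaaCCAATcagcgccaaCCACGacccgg
Syvn1 ERSE (chr19:6046532-6046550, + strand): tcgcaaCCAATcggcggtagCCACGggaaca
Canx ERSE (chr11:50325800-50325818, - strand): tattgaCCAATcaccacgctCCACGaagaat

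An ERSE was found in the windows of 8 of these 27 genes (29.6%), against 37 of the 27025 genes in the table of windows (0.137%). ERSE-II was found in 2 of the 27, Herpud1 and Dnajb11 (7.41%), against 0.0444% of all genes with a window. The UPRE core was in the Hspa5 window alone (3.7%), against 2.22% of all genes with a window. The CARE letters as searched, with T as the last base, were found for none of the 27 genes, against 1.08% of all genes with a window. Versions with another last base were not searched. The genes with an element include chaperones (Hspa5, Hsp90b1, Calr, Canx), a disulphide isomerase (Pdia6), co-chaperones (Dnajb11, Dnajc3) and genes of ER-associated degradation (Herpud1, Syvn1). The genes were picked as known targets of this response, for some of which these elements are part of the evidence, so their share is a description.

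The whole stretch before the start is shown for Herpud1, the membrane protein that gathers the degradation complex, and for Syvn1, its ubiquitin ligase HRD1. Both rose under lithium in both genotypes, and the exact search found different forms of the element in them. Spellings of ERSE or ERSE-II with a mismatch were not searched. In Herpud1 the 250 bases at chr8:94386179-94386428 (+ strand) hold ERSE-II at bases -52 to -42 from the start. In Syvn1 the 250 bases at chr19:6046326-6046575 (+ strand) hold an ERSE at bases -44 to -26.
Herpud1: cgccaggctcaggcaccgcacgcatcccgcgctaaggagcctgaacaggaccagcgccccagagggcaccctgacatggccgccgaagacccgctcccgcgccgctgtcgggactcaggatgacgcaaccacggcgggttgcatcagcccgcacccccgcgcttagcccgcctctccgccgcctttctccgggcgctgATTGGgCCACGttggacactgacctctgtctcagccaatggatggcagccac
Syvn1: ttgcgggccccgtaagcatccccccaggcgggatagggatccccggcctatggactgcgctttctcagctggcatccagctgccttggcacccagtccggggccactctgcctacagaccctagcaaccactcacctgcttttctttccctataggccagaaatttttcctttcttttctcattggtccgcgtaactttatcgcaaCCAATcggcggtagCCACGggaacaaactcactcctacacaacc

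**Figure D1:**
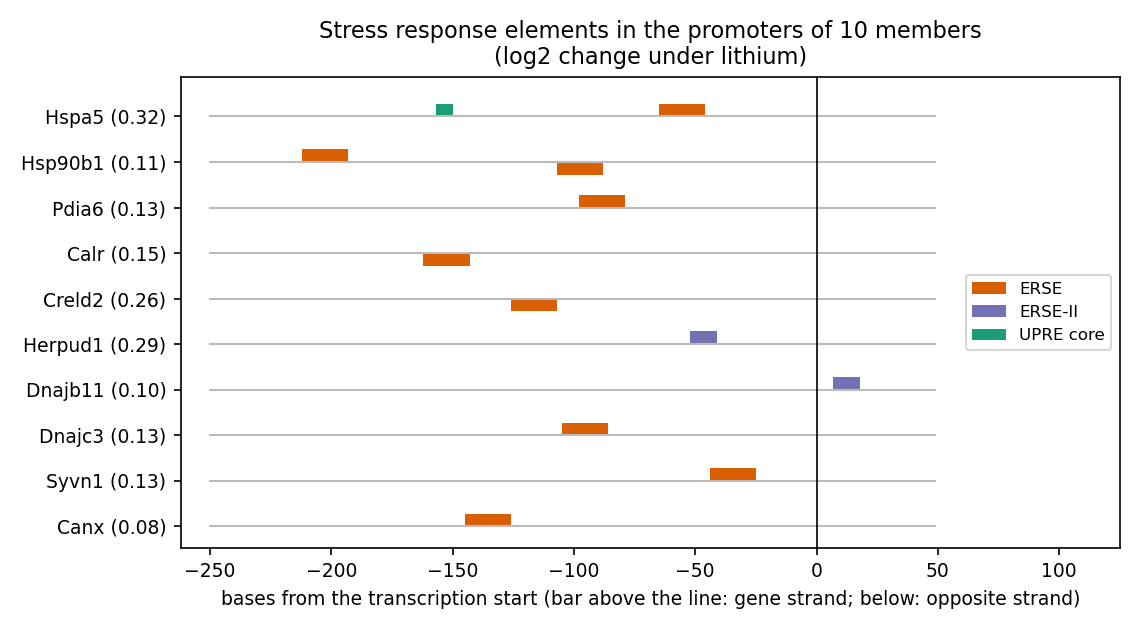
Elements found in the promoter windows of the ER stress and chaperone genes, by distance in bases from the RefSeq start (x axis, -250 to 49). Marks above a gene's line lie on the gene's strand and marks below it on the opposite strand; the number in brackets is the log2 change under lithium over both genotypes, and the 10 genes with an ERSE or ERSE-II lie between 0.08 and 0.32.

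Most of these genes were higher under lithium. Over both genotypes, 21 of the 32 were called higher and none lower, against 16.2% of all genes called in either direction and 9.31% called higher. A call is an adjusted p below 0.05 (limma, Benjamini-Hochberg over 17778 genes). The log2 change was positive for 31 of the 32, with a median of 0.107, against a median of 0.000321 over all genes tested. The ATF6 branch had 10 of 11 genes called and a median log2 change of 0.195. The IRE1 and XBP1 branch had 5 of 10 called with a median of 0.0936, the PERK branch 3 of 5 with 0.108, and the genes in no branch 3 of 6 with 0.0492. The difference between branches was not tested.

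**Figure D2:**
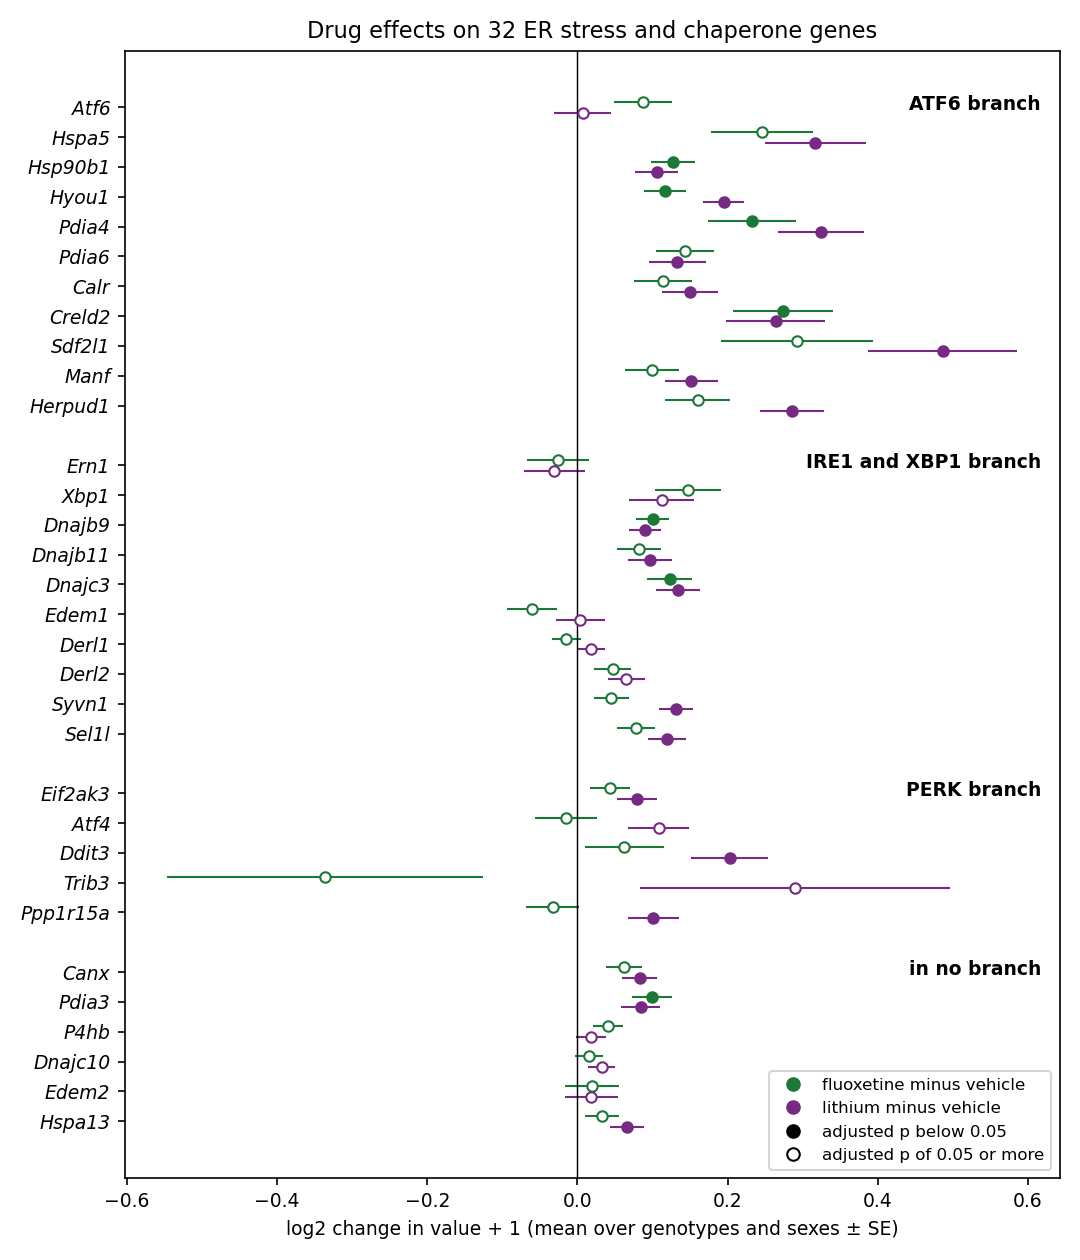
Log2 change of each ER stress and chaperone gene under fluoxetine (green) and lithium (purple) against vehicle, over both genotypes, with bars of 1 standard error. Filled points are called at an adjusted p below 0.05: 21 genes under lithium, 10 of them in the ATF6 branch, and 7 under fluoxetine.

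In the ATF6 branch, Hspa5 encodes BiP, the main HSP70 chaperone of the ER and the protein that holds the sensors inactive. Its values in HT mice had a lowest, median and highest of 6415, 7905 and 8904 under lithium, against 5119, 5749 and 7839 under vehicle. In WT mice they were 6352, 7577 and 8512 under lithium, against 4962, 5710 and 7791 under vehicle. The lithium and vehicle libraries overlapped, but all 19 lithium libraries lay above the vehicle mean of their own genotype and sex. Hspa5 was 24.6% higher under lithium (log2 change 0.32 ± 0.067, SE; adjusted p = 0.00081).

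Hyou1, an ER chaperone of the HSP110 class, separated the WT groups more cleanly. In HT mice its lowest, median and highest values were 3232, 3384 and 3665 under lithium, against 2812, 2989 and 3377 under vehicle. Those of WT mice were 3175, 3455 and 3762 under lithium, against 2772, 3008 and 3192 under vehicle. The WT groups overlapped little, with the lowest lithium value just under the highest vehicle value. The overlap was wider in HT mice, where the highest vehicle value was just under the lithium median. Hyou1 was 14.5% higher (log2 change 0.195 ± 0.0272; adjusted p = 1.8e-06), the smallest p of the 32 genes.

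Sdf2l1, a partner of BiP that keeps unfolded proteins from aggregating, changed most. In HT mice its lowest, median and highest values were 256, 348 and 447 under lithium, against 197, 243 and 381 under vehicle. WT mice had 263, 356 and 427 under lithium, against 172, 228 and 330.1 under vehicle. The ranges overlapped in both genotypes, and 18 of 19 lithium libraries were above their vehicle mean. The change was 40.1% (log2 change 0.49 ± 0.0991; adjusted p = 0.00053).

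Disulphide isomerases form and rearrange disulphide bonds in folding proteins. For Pdia4 the lowest, median and highest values in HT mice were 1026, 1276 and 1459 under lithium, against 806, 957 and 1249 under vehicle. In WT mice they were 1014, 1183 and 1374 under lithium, against 837, 932 and 1193 under vehicle. All 19 lithium libraries were above their vehicle mean, and Pdia4 was 25.2% higher (log2 change 0.32 ± 0.0573; adjusted p = 8.1e-05). Pdia6 was 9.67% higher (log2 change 0.13; adjusted p = 0.012).

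Herpud1, whose ERSE-II is printed above, gave complete separation in WT mice. There its lowest, median and highest values were 1215, 1372 and 1595 under lithium, against 969.7, 1097 and 1154 under vehicle. In HT mice they were 1153, 1382 and 1534 under lithium, against 1027, 1132 and 1374 under vehicle, so the HT groups overlapped. Herpud1 was 21.9% higher over both genotypes (log2 change 0.29 ± 0.0426; adjusted p = 6e-06), with 19 of 19 lithium libraries above their vehicle mean.

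The other called genes of the ATF6 branch were Creld2, Manf, Calr and Hsp90b1. Creld2, a disulphide isomerase of the ER that can be secreted, was 20.1% higher under lithium (log2 change 0.26 ± 0.0658; adjusted p = 0.0039). Manf, a secreted factor that protects neurons, was 11.1% higher (adjusted p = 0.0021). Calr, the calcium-binding lectin chaperone calreticulin, had a log2 change of 0.15 ± 0.0379 (adjusted p = 0.0044). Hsp90b1, the HSP90 chaperone GRP94, was 7.58% higher (adjusted p = 0.0084). The mRNA of the sensor Atf6 itself was the exception of its branch, with a log2 change of 0.01 (95% interval -0.0671 to 0.0813; adjusted p = 0.93).

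**Figure D3:**
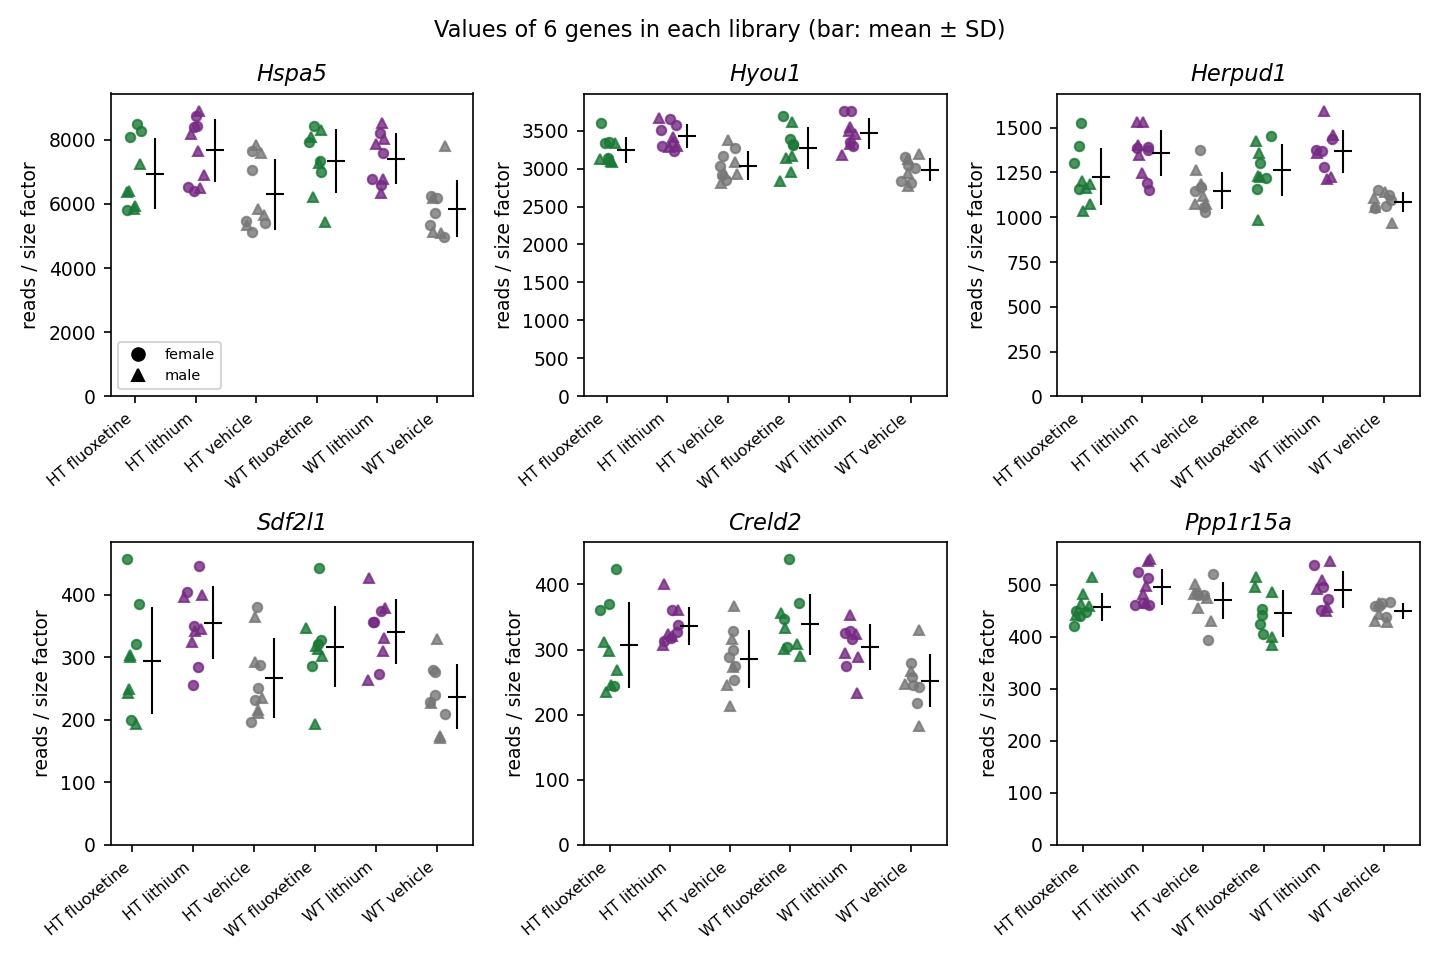
Values (reads over the size factor) of Hspa5, Hyou1, Herpud1, Sdf2l1, Creld2 and Ppp1r15a in each library, by genotype and treatment, with bars for the mean ± SD. Circles are females and triangles are males. In WT mice all Herpud1 values under lithium (1215 to 1595) lie above those under vehicle (969.7 to 1154), while the other 5 genes overlap there between lithium and vehicle.

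The 5 called genes of the IRE1 and XBP1 branch were Syvn1, Sel1l, Dnajc3, Dnajb11 and Dnajb9. Syvn1 had lowest, median and highest values in HT mice of 1597, 1704 and 1747 under lithium, against 1413, 1545 and 1648 under vehicle. Those of WT mice were 1566, 1650.4 and 1827 under lithium, against 1353, 1527 and 1667 under vehicle. The ranges overlapped, with 19 of 19 lithium libraries above their vehicle mean. Syvn1 was 9.53% higher (log2 change 0.13 ± 0.0229; adjusted p = 7e-05). Sel1l, the adaptor that holds SYVN1 in its complex, was 8.6% higher (adjusted p = 0.00077). The co-chaperones that stimulate BiP rose as well: Dnajc3, which also inhibits PERK, by 9.71% (adjusted p = 0.0011), Dnajb11 by 6.94% (adjusted p = 0.017) and Dnajb9 by 6.47% (adjusted p = 0.0023).

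The other genes of that branch were not called under lithium. Xbp1 had a log2 change of 0.11 (95% interval 0.0277 to 0.197; adjusted p = 0.066), with 15 of 19 lithium libraries above their vehicle mean. Derl2, a channel component of degradation, had 0.07 (adjusted p = 0.06) and its relative Derl1 had 0.02 (adjusted p = 0.55). The sensor Ern1 had -0.03 (95% interval -0.11 to 0.0494; adjusted p = 0.67). Edem1, a mannosidase-like protein that hands misfolded glycoproteins to degradation, had 0.00 (95% interval -0.0608 to 0.0687; adjusted p = 0.96).

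In the PERK branch, Ddit3, the transcription factor CHOP, changed most clearly. Its lowest, median and highest values in HT mice were 341, 368 and 462 under lithium, against 257, 343 and 419 under vehicle. WT mice had 307, 371 and 394 under lithium, against 247, 325 and 344 under vehicle. The ranges overlapped in both genotypes, and 18 of 19 lithium libraries were above their vehicle mean. Ddit3 was 15.1% higher (log2 change 0.20 ± 0.0516; adjusted p = 0.0046). Ppp1r15a, the phosphatase subunit that restores translation, was 7.26% higher (adjusted p = 0.036; 14 of 19 libraries), and the kinase gene Eif2ak3 was 5.66% higher (adjusted p = 0.033; 17 of 19). Leaving out 1 library in turn ended the call of Ppp1r15a in 12 of 56 omissions (highest adjusted p 0.074, without WT lithium female 3) and that of Eif2ak3 in 8 (0.065, without WT lithium female 2), and that of Ddit3 in 0. The calls of Ppp1r15a and Eif2ak3 were also lost with voom.

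Atf4 itself was not called (log2 change 0.11, 95% interval 0.0291 to 0.187; adjusted p = 0.058). Trib3, a pseudokinase induced by ATF4 and CHOP, had the lowest values of the 32 genes. Its lowest, median and highest values in HT mice were 3.58, 11.04 and 20.5 under lithium, against 4.57, 7.54 and 17.0 under vehicle. The ranges overlapped almost wholly, and the log2 change of 0.29 ± 0.207 was not called (adjusted p = 0.37). The 95% interval ran from -0.117 to 0.696.

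Among the genes in no branch, the lectin chaperone Canx (calnexin) was 5.91% higher under lithium (adjusted p = 0.011). Its partner isomerase Pdia3 was 6.0% higher (adjusted p = 0.02), and Hspa13, an HSP70 relative in microsomes, was 4.69% higher (adjusted p = 0.036). The call of Hspa13 was lost in 13 of 56 omissions of 1 library (highest adjusted p 0.076, without WT vehicle male 4) and with TMM rescaling, voom and edgeR, while those of Canx and Pdia3 were lost in 0 of the omissions. P4hb, the isomerase that is also a subunit of collagen prolyl hydroxylase, Dnajc10, an ER reductase, and Edem2, a mannosidase of degradation, were not called, with log2 changes of 0.02, 0.03 and 0.02.

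The 10 genes with an ERSE or ERSE-II in the window were all called higher under lithium, with a median log2 change of 0.133. Of the 17 with a window but neither element, 8 were called (median 0.0905), among them Sdf2l1 and Pdia4. Of the 5 with no window, 3 were called. Under fluoxetine the counts were 3 of 10, 3 of 17 and 1 of 5. The difference between these sets was not tested.

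Taken by genotype, lithium called 9 of the 32 genes in HT mice (8.77% of all genes) and 12 in WT mice (5.71%). Of all calls in WT mice 67.1% were higher, against 55.9% with TMM rescaling and 39.8% with voom. The log2 change was positive for 28 of 32 in HT mice (median 0.0831) and for 30 of 32 in WT mice (median 0.121). Hspa5, Hyou1, Pdia4, Sdf2l1, Herpud1, Syvn1 and Sel1l were called in both. Dnajc3 and Derl2 were called in HT mice, and Pdia6, Calr, Dnajb9, Ddit3 and Canx in WT mice. No difference between genotypes was detected: the interaction of lithium with genotype called 0 of 32 genes with limma, edgeR and DESeq2, and 0 had an unadjusted p below 0.05, against 0 genes called by limma (0%) and 10.9% with such a p in the whole table. DESeq2 called 11 genes in the whole table, none of them among the 32. For Hspa5 the log2 change was 0.29 ± 0.0919 in HT mice and 0.34 ± 0.0975 in WT mice. Without the 23 libraries rich in neighbouring regions, 0 of the 32 were called in HT mice (26 of 32 positive, median 0.081) and 2 in WT mice, Herpud1 and Hyou1 (31 of 32 positive, median 0.116). In the whole table that setting called 324 of 17489 genes in HT mice and 117 in WT mice. In WT mice the count was 6 with TMM rescaling (884 of 17778 genes in the whole table), voom (794) or edgeR (818). It was 4 with astrocyte and endothelial covariates (758). The count in HT mice was 5 without HT lithium female 4, HT lithium female 5, HT lithium male 3 or HT vehicle male 1. The count in WT mice was 4 without WT vehicle male 1 or WT vehicle male 4, 6 without WT lithium female 4 or WT lithium male 4, and 7 without WT lithium female 3, WT vehicle female 2 or WT vehicle female 3.

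Counts of calls under lithium differed with libraries left out and with marker scores as covariates, and some cell markers changed under lithium. Without the 23 libraries rich in olfactory or striatal RNA, 7 of the 32 genes were called under lithium over both genotypes: Hspa5, Hyou1, Pdia4, Herpud1, Syvn1, Dnajb9 and Dnajc3. The direction was positive for 30 of 32 there, with a median log2 change of 0.0976. With scores of those regions as covariates in all libraries, 23 of the 32 were called (3487 of 17778 genes in the whole table). Of 8 microglial markers, 3 were lower under lithium and all 8 had a negative change (median -0.105). Their summed value was 9854 to 11950.2 in HT lithium and 8835 to 12344 in WT lithium libraries, against 10228 to 13201 in HT vehicle and 10537 to 12540 in WT vehicle libraries. Of 6 markers of meninges and fibroblasts, 4 were lower (median -0.204), with sums of 3907 to 6216 in HT lithium and 4127 to 6580 in WT lithium libraries, against 4415 to 7792 in HT vehicle and 5098 to 7983 in WT vehicle libraries. No marker of either list was at 0. The part of microglia and meninges in the changes above was not tested. Of 6 endothelial markers 1 was higher and 2 lower, and of 8 astrocyte markers 1 was lower. With astrocyte and endothelial scores as covariates, 11 of the 32 genes were called (Dnajb9, Sel1l, Dnajc3, Sdf2l1, Syvn1, Ddit3, Pdia4, Hspa5, Herpud1, Hyou1 and Manf), and the median log2 change was 0.072. That setting called 1814 of 17778 genes in the whole table.

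In 5 wider lists of the same pathways, 23 of 100 genes were called under lithium, against 16.2% of all genes. The difference between these lists and the 32 genes was not tested. Of 24 targets of ATF4 and the amino acid response, 6 were higher and 2 lower. Sesn2, a stress-induced regulator of mTORC1, led them with a log2 change of 0.17 ± 0.0284 (adjusted p = 3.8e-05; 19 of 19 libraries). The amino acid carrier genes Slc3a2 (0.08) and Slc7a5 (0.06) and the tRNA synthetase genes Aars, Nars and Gars were higher by 0.07 to 0.08. The cystine carrier gene Slc7a11 fell (-0.18; adjusted p = 0.013), as did Cth, the enzyme gene of cysteine synthesis (-0.15; adjusted p = 0.022). The median over the 24 was 0.021.

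Of 16 further genes of ER-associated degradation, 3 (18.8%) were higher (Os9, Edem3 and Vcp) and none lower. Of 22 genes of oxidative folding and other chaperones, 5 (22.7%) were called, 4 higher and 1, Rcn2, lower. The oxidase gene Ero1lb had a log2 change of 0.19 ± 0.0379 (adjusted p = 0.00043; 19 of 19), Txndc11 had 0.12 and Uggt1, the folding sensor of glycoproteins, had 0.11. Prkcsh was also higher, by 0.08 (adjusted p = 0.0046). Of 22 genes of the translocon and secretory pathway, 5 (22.7%) were called, 2 higher (Sec63 and Spcs2) and 3 lower. The small translocon subunits Sec61g (-0.22 ± 0.044; adjusted p = 0.00038) and Sec61b (-0.12; adjusted p = 0.0014) were among those 3, with Spcs1 of the signal peptidase. Of 16 further sensors and processing genes, 2 (12.5%) were called, both higher: Mbtps2, the protease that cuts ATF6 (0.11), and Creb3l2, an ATF6 relative (0.16). The shares of these 4 lists lie near the 16.2% of all genes called, and their medians lay between -0.0227 and 0.0218.

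Fluoxetine was set against the same vehicle libraries as lithium, so the directions of the drug effects are not independent. Over both genotypes 7 of 32 were called higher under fluoxetine and none lower, against 0.928% of all genes called in either direction and 0.523% called higher. Of those calls 56.4% were higher, against 47.9% with TMM rescaling and 28.8% with voom, while the called genes among the 32 were all higher in each. The log2 change was positive for 26 of 32, with a median of 0.0799. The ATF6 branch had 4 of 11 called (median 0.144), the IRE1 and XBP1 branch 2 of 10 (0.0623), the PERK branch 0 of 5 (-0.0152) and the genes in no branch 1 of 6 (0.0369). With limma, 0 of the 5 PERK genes had an unadjusted p below 0.05, against 14% of all genes. The difference between branches was not tested.

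Creld2 had the largest change of the 7. In WT mice its lowest, median and highest values were 291, 333 and 439 under fluoxetine, against 182, 247 and 330.1 under vehicle. In HT mice they were 235, 299 and 424 under fluoxetine, against 213, 282 and 366 under vehicle. The ranges overlapped in both genotypes, almost wholly in HT mice. Over both, Creld2 was 20.9% higher (log2 change 0.27 ± 0.0668; adjusted p = 0.032; 14 of 18 fluoxetine libraries above their vehicle mean).

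Dnajb9 had the smallest p. Its lowest, median and highest values in HT mice were 960.3, 1012 and 1089.7 under fluoxetine, against 903, 956 and 1035 under vehicle. In WT mice they were 956, 1018 and 1059 under fluoxetine, against 885, 931 and 996 under vehicle. The ranges overlapped, yet 17 of 18 fluoxetine libraries were above their vehicle mean, and Dnajb9 was 7.18% higher (adjusted p = 0.015).

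The other 5 called were Pdia4, higher by 17.5% (adjusted p = 0.04), Hsp90b1 by 9.2% (0.024), Dnajc3 by 8.88% (0.032), Hyou1 by 8.42% (0.03) and Pdia3 by 7.1% (0.049). Hspa5 had a log2 change of 0.25 (95% interval 0.112 to 0.379) and was not called (adjusted p = 0.061). Pdia6 (0.14; adjusted p = 0.052) and Herpud1 (0.16; adjusted p = 0.054) also missed the threshold. Sdf2l1 had 0.29 ± 0.101 (adjusted p = 0.15). In the PERK branch, Atf4 had -0.02 (95% interval -0.0954 to 0.0651), Ppp1r15a had -0.03 (-0.102 to 0.0357), Ddit3 had 0.06 (-0.0403 to 0.165) and Trib3 had -0.34 ± 0.21 (adjusted p = 0.5).

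The number of calls moved with single libraries. Without the 23 libraries rich in neighbouring regions none of the 32 was called under fluoxetine, where 5 of 17489 genes were called in the whole table. Still, 26 of 32 stayed positive with a median log2 change of 0.0671. With astrocyte and endothelial scores as covariates 3 were called (122 of 17778 genes in the whole table), and 11 with DESeq2 (294 of 13986). Leaving out WT vehicle male 4 gave 1 call. The count was 2 without HT fluoxetine female 4, without female 2 or 3 of WT fluoxetine, and without male 1 of WT vehicle. It was 3 without HT fluoxetine female 2, HT fluoxetine male 1 or WT fluoxetine male 5. It was 4 without HT fluoxetine female 3, HT fluoxetine male 5, WT fluoxetine female 4, HT vehicle female 1 or HT vehicle males 1, 2 or 5, and 11 without HT fluoxetine female 1 or WT fluoxetine male 1. Of the 7 calls, that of Dnajb9 was lost in 0 of the 56 omissions, Hsp90b1 in 2, Hyou1 in 4, Dnajc3 in 10, Creld2 in 13, Pdia4 in 19 and Pdia3 in 40. No marker of microglia, meninges, endothelium or astrocytes was called under fluoxetine.

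By genotype, limma called 0 of 32 genes under fluoxetine in HT mice (0.045% of all genes), with 6 at an unadjusted p below 0.05 (8.56% of all genes) and 0 called by edgeR or DESeq2. In WT mice it called Creld2 alone (0.146% of all genes, 69.2% of them higher and 14.3% with voom; log2 change 0.44 ± 0.0958; adjusted p = 0.048; 9 of 9 libraries), with 18 at an unadjusted p below 0.05 (10.9% of all genes). All 11 genes of the ATF6 branch had a positive change in WT mice, with a median of 0.21. In WT mice 5 were called by DESeq2 and 1 by edgeR. The call of Creld2 was lost in 31 of the 56 omissions of 1 library, namely HT fluoxetine females 2 and 4 and males 2, 3, 4 and 5, WT fluoxetine females 2, 3 and 4 and males 2, 3, 4 and 5, HT lithium females 2 and 5 and male 2, WT lithium females 1 and 3 and males 1, 3 and 4, HT vehicle female 2 and males 1, 2 and 3, and WT vehicle females 1, 2, 3 and 5 and males 1 and 4. Leaving out WT fluoxetine female 1 gave 2 calls, leaving out WT vehicle male 3 gave 3, and leaving out WT fluoxetine male 1 gave 5.

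Of the 100 genes in the wider lists, 2 were called under fluoxetine over both genotypes, against 0.928% of all genes. Cth was lower (log2 change -0.19 ± 0.0489; adjusted p = 0.041; 3 of 18 libraries above their vehicle mean). Ero1lb was higher (0.15 ± 0.0385; adjusted p = 0.041; 15 of 18).

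Fluoxetine was also set directly against lithium. No vehicle library enters that difference, though all libraries share the estimate of the spread behind its SE and p. Of the 32 genes 2 were called and both were lower under fluoxetine, against 6.5% of all genes called in either direction and 3.84% called lower. The share of the 32 genes called thus lies near that of all genes. Ppp1r15a had lowest, median and highest values in HT mice of 420.2, 449 and 515 under fluoxetine, against 460.1, 489 and 549 under lithium. Those of WT mice were 385, 442 and 514 under fluoxetine, against 450.0, 492 and 545 under lithium. The ranges overlapped, and 3 of 18 fluoxetine libraries were above their lithium mean. The log2 difference, fluoxetine minus lithium, was -0.13 ± 0.035 (adjusted p = 0.013). Syvn1 had a log2 difference of -0.09 ± 0.0233 (adjusted p = 0.017; 2 of 18).

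All 5 genes of the PERK branch had a negative difference, with a median of -0.134, and 4 of the 5 had an unadjusted p below 0.05, against 20.8% of all genes. Besides Ppp1r15a these were Trib3 (-0.63 ± 0.21; adjusted p = 0.061; 1 of 18), Atf4 (-0.12 ± 0.0409; adjusted p = 0.057; 4 of 18) and Ddit3 (-0.14 ± 0.0524; adjusted p = 0.097; 3 of 18), none of them called. Eif2ak3 had -0.04 (95% interval -0.0892 to 0.0167). The medians were -0.0522 in the ATF6 branch, -0.0164 in the IRE1 and XBP1 branch and -0.00803 in no branch. In the ATF6 branch Herpud1 (-0.13; adjusted p = 0.068) and Hyou1 (-0.08; adjusted p = 0.076) came nearest to a call. For Hspa5 the difference was -0.07 (95% interval -0.205 to 0.0618) and for Creld2 0.01 (-0.121 to 0.141), so the drugs could not be told apart on these genes. The difference between branches was not tested.

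The count of 2 became 0 without the 23 libraries rich in neighbouring regions (361 of 17489 genes called in the whole table). It became 4 without HT lithium female 1, WT lithium female 1 or WT lithium male 2, and 5 without WT fluoxetine male 2. In the 5 wider lists 6 of 100 genes were called, near the 6.5% of all genes. Sesn2 had the smallest p of these, lower by a log2 difference of -0.21 ± 0.0288 (adjusted p = 4.5e-06; 0 of 18 fluoxetine libraries above their lithium mean). Aars (-0.06; adjusted p = 0.025) and Mogs, a glucosidase that trims new glycans (-0.08; adjusted p = 0.039), were also lower. Ufd1 of the degradation complex (0.07; adjusted p = 0.0066), the folding enzyme gene Fkbp2 (0.14; adjusted p = 0.045) and Eif2s1, the translation factor that PERK phosphorylates (0.08; adjusted p = 0.011), were higher.

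Scn2a genotype by itself moved none of these genes past the threshold. HT minus WT called 0 of 32 with limma under vehicle (0.00562% of all genes), under fluoxetine (0.0112%) and under lithium (0.0337%), and 0 with edgeR or DESeq2. At an unadjusted p below 0.05 there was 1 gene under vehicle (9.93% of all genes), P4hb, with a log2 difference of 0.07 (adjusted p = 0.37). There were 0 under fluoxetine (3.94% of all genes) and 1 under lithium (10.3%), Atf6, with -0.12 (adjusted p = 0.43). The medians over the 32 were 0.0415, -0.03 and 0.0151. The interaction of fluoxetine with genotype called 0 of 32 with limma, edgeR and DESeq2 (0% of all genes), with 3 at an unadjusted p below 0.05 (5.44% of all genes). The largest of these was Creld2, whose fluoxetine effect was smaller in HT than in WT mice by a log2 difference of -0.33 (95% interval -0.595 to -0.0718; adjusted p = 0.84). The drug effects in females minus those in males called 0 of 32 with limma, edgeR and DESeq2 for either drug (0% of all genes with limma). In the whole table DESeq2 called 10 genes for fluoxetine and 0 for lithium. At an unadjusted p below 0.05 there were 9 genes for fluoxetine (8.52% of all genes) and 1 for lithium (7.16%). The smallest p for fluoxetine was that of Sel1l, with a log2 difference of 0.19 (adjusted p = 0.37).

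Mice of the same group also differed in these genes. The within-group SD on the log2 scale was 0.211 for Hspa5, 0.209 for Creld2, 0.182 for Pdia4 and 0.313 for Sdf2l1. Trib3 had the largest, 0.64, higher than in 93.4% of the genes tested, while Hspa5 stood above 66.2% of them and Hyou1 above 26.2%. The values of Trib3 were low (2.14 to 20.5 over all libraries), and the part of counting error in its SD was not tested. The smallest SDs were those of Derl1 (0.0541), Dnajc10 (0.0542), P4hb (0.059) and Dnajb9 (0.0627). Whether the genes moved together from mouse to mouse was described by the slope of each gene on log2 Hspa5 inside the 12 groups of genotype, treatment and sex. The points share library, dissection and size factor, and what of the slopes these carry was not tested, apart from the settings given below.

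Of the 31 genes other than Hspa5, 21 had a called slope, 20 positive and 1 negative, against 14% of all genes. The median slope was 0.163, against -0.00317 over all genes. In the ATF6 branch 9 of 10 were called (median slope 0.472) and in the IRE1 and XBP1 branch 9 of 10 (8 positive and 1 negative, median 0.16). The calls in the ATF6 branch held under every setting run, as did those of Xbp1, Dnajb11 and Dnajc3. The calls of Ern1, Dnajb9, Derl1 and Sel1l were lost with astrocyte and endothelial covariates, as was that of Edem1. Without the libraries rich in neighbouring regions the calls of Ern1, Dnajb9, Derl1, Sel1l and Syvn1 were lost. The same calls were lost with the replicate number as a block, and that of Dnajb9 also with TMM rescaling and voom. In the PERK branch 1 of 5 was called (median 0.111), and in no branch 2 of 6 (0.0997). Among the 10 genes with the smallest p in the whole table, 6 were from the list: Pdia4 (slope 0.80 ± 0.0512; adjusted p = 2.7e-16), Pdia6 (0.52), Calr (0.50), Xbp1 (0.57), Sdf2l1 (1.24) and Hyou1 (0.34). A slope of 1 means that the gene changed by the same factor as Hspa5.

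Sdf2l1 thus varied more steeply than Hspa5, and Hyou1 less. Xbp1 (adjusted p = 1.2e-11) was called here though neither drug effect on it was. Atf6 (slope -0.06; adjusted p = 0.7) did not follow Hspa5, and Edem1 had a negative slope (-0.29; adjusted p = 4.6e-04) whose call was lost with astrocyte and endothelial covariates (adjusted p = 0.18). In the PERK branch only Ddit3 had a call (slope 0.45; adjusted p = 7.8e-04). Ppp1r15a (0.01; adjusted p = 0.98), Trib3 (-0.13; adjusted p = 0.89), Atf4 (0.16; adjusted p = 0.23) and Eif2ak3 (0.11; adjusted p = 0.2) had none. The genes in no branch with a call were Pdia3 (0.30) and Hspa13 (adjusted p = 0.038). The call of Hspa13 was lost in 15 of 56 omissions of 1 library and in 4 of 9 other settings. That of Pdia3 was lost in 0 of either. The highest-ranked gene outside the list was P4ha1, a subunit of the collagen prolyl hydroxylase that P4hb completes (slope 0.84; adjusted p = 2.1e-10), named after its value was seen.

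Cell-type markers also ran with Hspa5. Slopes were called negative for 4 of 6 endothelial, 3 of 8 microglial, 3 of 6 meningeal, 2 of 8 astrocyte and 1 of 5 choroid plexus markers. Of 8 olfactory markers 0 were called (limma), with a median slope of 1.02. Without the 23 libraries rich in neighbouring regions 15 of the 31 slopes were called, with astrocyte and endothelial scores as covariates 15, and with olfactory and striatal scores 22. In the whole table these settings called 699 of 17488, 542 of 17777 and 3101 of 17777 slopes.

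**Figure D4:**
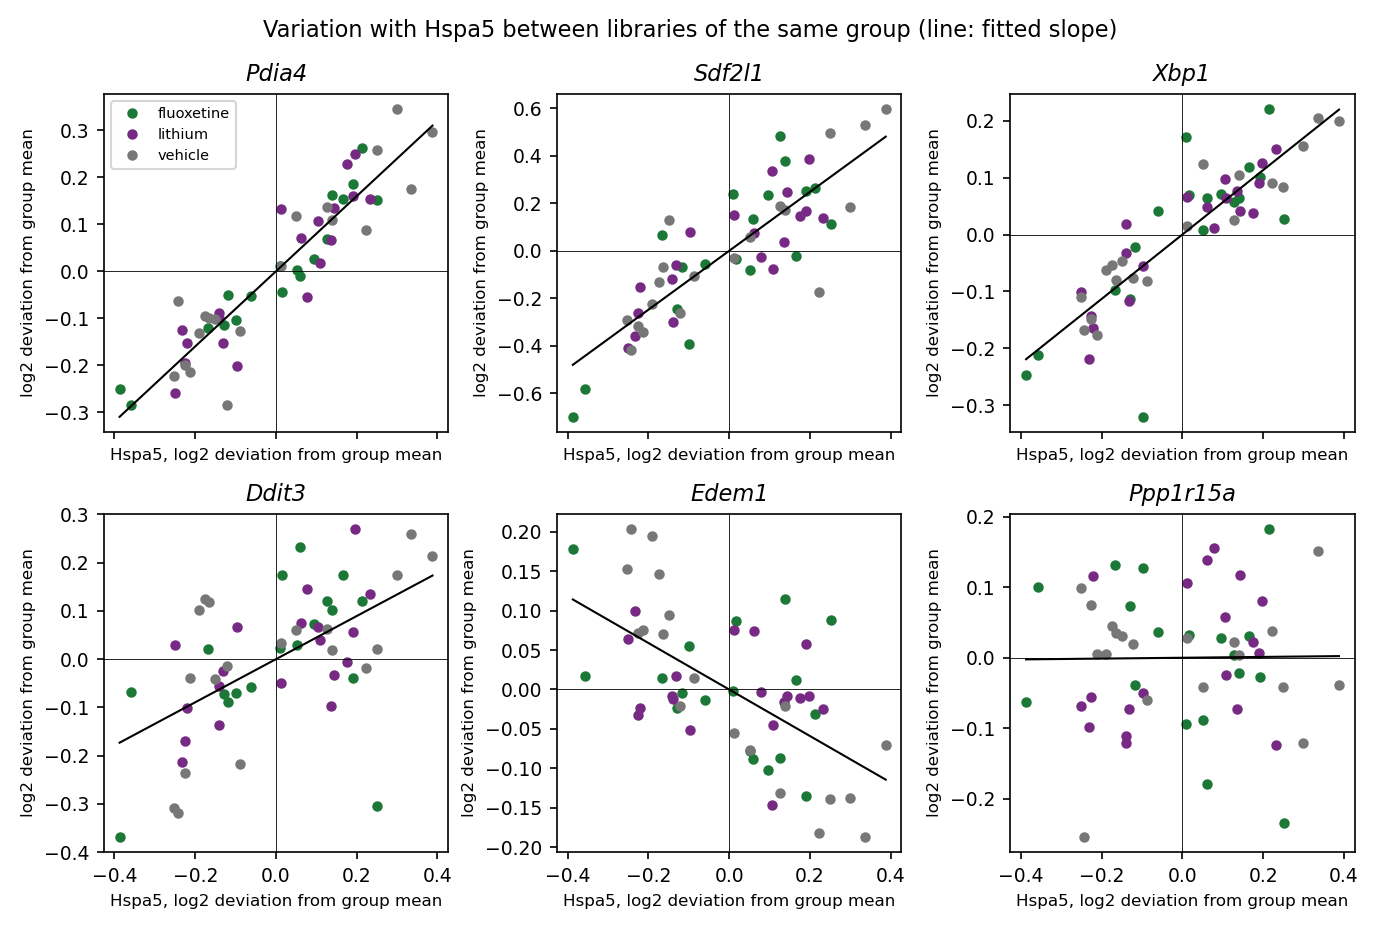
Deviation of each library from its group mean (log2) for Pdia4, Sdf2l1, Xbp1, Ddit3, Edem1 and Ppp1r15a (y axes) against that of Hspa5 (x axis), 56 libraries in 12 groups of genotype, treatment and sex. Lines are the fitted slopes: 0.80 for Pdia4, 1.24 for Sdf2l1, 0.57 for Xbp1, 0.45 for Ddit3, -0.29 for Edem1 and 0.01 for Ppp1r15a.

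The genes spanned a wide range of levels, compared here as mean value per kilobase of exon over all 56 libraries. Calr was highest at 3471, followed by Hsp90b1 at 2057, Canx at 2056, Hspa5 at 1636 and Pdia3 at 1559, all lectin or HSP chaperones or their isomerase. Atf4, a transcription factor whose protein is held low by translation, was close behind at 1256, with P4hb at 1027. At the other end were Edem1 at 97.7, Derl2 at 87.5, the sensor Ern1 at 43.7 and Trib3 at 3.93.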

How the data were processed

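RNA from 56 prefrontal cortex samples was sequenced after a TruSeq Stranded mRNA preparation, per the labels' protocols. Per the submitters' processing notes, the tools were Salmon 0.11.2, DESeq2 1.19.11 and R 3.6.0, and the genome build was GRCm38. Their roles and the annotation are not given in the sources used here. Each deposited value is a signal in which the authors divided each gene's read count by the library's size factor (0.818 to 1.23). Whole reads were recovered from 100% of the values at a tolerance of 0.01 reads. In HT lithium female 5 and in HT vehicle males 2 and 5 the size factor was too close to 1 for that test. The design had named edgeR for raw counts and limma for values already normalized, and the deposited values were of the second kind.

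Genes with a value of at least 10 in at least 4 libraries were tested, which left out 310 genes. In R 4.3.3, limma 3.58.1 (trend and robust) was fitted to log2(value + 1) with 12 group means and all libraries. A fold change on the log2(value + 1) scale understates the change of low genes. Effects are averages over the sexes, and "over both genotypes" averages HT and WT. Percent changes are 2 to the power of the log2 change. Libraries are counted as above the mean (log2) of the group of the same genotype and sex that they are compared with. Adjusted p-values are Benjamini-Hochberg over all genes tested, here and in the text, and a gene is called below 0.05. Scripts were tested on simulated data. P-values cover the spread between these mice, and depth covers counting error only.

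The members, branches, pathway lists and marker lists were chosen with earlier results of these data known. The text names all 32 members and the genes of the wider lists called for a drug over both genotypes or between the drugs. Calls of the wider lists within a single genotype and for the slope on Hspa5 are not listed. Promoter windows are from RefSeq (GRCm38.p6), and other coordinates are GENCODE vM21 on the same build. Alternatives were TMM rescaling, voom, no filter, pseudocounts of 0.5 and 5, a block for the replicate number, a fit on the compared groups alone, olfactory and striatal scores as covariates, edgeR 4.0.16 and DESeq2 1.42.0 on the recovered counts, and leaving out each library. Leaving out the 23 libraries rich in olfactory or striatal RNA, and astrocyte and endothelial scores as covariates, were added after the data were seen.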

Additional observations from a re-analysis of the deposited data

Results flagged for a closer look

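In 192 sets (each of the 32 genes in each of the 6 groups of genotype and treatment), the highest or lowest library was tested for standing apart from the rest of its group. It did in 9, which is near the 1 in 20 that chance alone gives.

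WT vehicle male 3 stood apart for 3 genes, at 7791 for Hspa5 (next 6234), 11110.6 for Calr (next 9597) and 1755 for Dnajc3 (next 1589.6), each the highest of the 9 WT vehicle libraries. Calr and Dnajc3 had called slopes on Hspa5 inside groups, so the flags of these 3 genes are not independent. Without that library 3 genes were called under fluoxetine in WT mice, against 1 with it.

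HT lithium female 3 was lowest of its group for Atf6 at 2339 (next 2753) and highest for Ddit3 at 462 (next 404). HT lithium female 1 was lowest for Dnajb9 at 884 (next 983), and HT lithium female 2 for Eif2ak3 at 776 (next 878). WT fluoxetine male 3 was lowest for Trib3 at 3.86 (next 6.08), and HT fluoxetine female 1 for Edem2 at 429.7 (next 498).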

How the results depend on the processing

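No change of direction occurred in a called result under any setting run. Lithium over both genotypes called 21 of the 32 genes, 18 to 23 with 1 library left out, 20 with TMM rescaling or edgeR, 18 with voom, 11 with astrocyte and endothelial covariates and 7 without the 23 libraries rich in olfactory or striatal RNA. Lithium in WT mice called 12 (4 to 14 with 1 library left out), 6 with TMM rescaling, voom or edgeR, 4 with the astrocyte and endothelial covariates and 2 without the 23. Lithium in HT mice called 9 (5 to 11) and 0 without the 23. Fluoxetine over both genotypes called 7 (1 to 11), 4 with voom or only the groups compared, 3 with the astrocyte and endothelial covariates, 11 with DESeq2 and 0 without the 23. Fluoxetine in WT mice called 1 (0 to 5), 0 with voom, those covariates, only the groups compared or without the 23, and 5 with DESeq2. Fluoxetine minus lithium called 2 (2 to 5), 4 with voom, edgeR, DESeq2 or the olfactory and striatal covariates, 5 with the astrocyte and endothelial covariates and 0 without the 23. The slope on Hspa5 was called for 21 genes (18 to 22). The smaller number of libraries is part of the setting without the 23, and otherwise the cause was not tested. In the whole table, that setting called 891 of 17489 genes for lithium over both genotypes. It called 5 for fluoxetine over both genotypes and 361 for fluoxetine minus lithium. No filter and the other pseudocounts kept every count within 1 of the reported one. Fluoxetine in HT mice, the genotype effects, the interactions and the sex differences called 0 under every setting run.

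Replicate numbers are shared by the groups but the labels do not say that they pair mice. The numbers used are those of the sample titles. In WT fluoxetine females and WT lithium females some of them differ from the numbers in the library names. The median correlation of deviations was -0.00161 for the same number and -0.000226 for different numbers, and 11 of 56 libraries were closest to their own number. With the replicate number as a block, 22 genes were called under lithium over both genotypes, 17 in WT and 10 in HT mice. Under fluoxetine 11 were called over both genotypes, 6 in WT and 0 in HT mice, with 4 for fluoxetine minus lithium and 15 slopes.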
